A study of Mus musculus with 4 samples.

Results

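Genes of bone morphogenetic protein (BMP) signalling were followed across 4 arrays of p53-null mouse neural stem cells: the ligand genes Bmp2, Bmp4 and Bmp7, the target genes Id1, Id2, Id3 and Id4, the inhibitory Smad genes Smad6 and Smad7, and Nog, the gene of the secreted antagonist noggin. They were found by gene name among the non-control probes of the array, which gave 10 genes with 11 probes, of 22314 named genes and 55681 probes in all. Each of the 4 groups had 1 array. NSCL61-Ceacam1sh were cells of the line NSCL61 carrying a short hairpin RNA against Ceacam1, an immunoglobulin-family adhesion molecule, and NSCL61 was that line itself, a glioma-initiating line known to have been derived from p53-null stem cells by oncogenic Ras. NSC-Ceacam1L were neural stem cells transfected to express Ceacam1L, its long isoform, and NSC were neural stem cells without it. All 4 groups were labelled p53-/-, from the brain of E14.5 embryos, grown without serum, and the labels tell of transfection and 1 week of hygromycin selection for each, without saying whether NSC and NSCL61 carried an empty vector, which promoter drove either insert, or whether cells came from 1 clone. The series set NSC-Ceacam1L against NSC and NSCL61-Ceacam1sh against NSCL61 to find genes downstream of Ceacam1, and NSCL61 was also set against NSC.

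BMPs are secreted ligands that bring together paired serine/threonine kinase receptors, which phosphorylate Smad1, Smad5 and Smad9. These join Smad4, enter the nucleus and switch on genes of which the Id genes are the best known. Id proteins have a helix-loop-helix domain but no DNA-binding part, and hold E proteins and other bHLH factors away from DNA. Smad6 and Smad7 are induced by the same signal and block it, and noggin binds BMPs outside the cell. In neural stem cells BMP signalling is known for turning cells towards an astrocyte fate and away from neuronal and oligodendrocyte fates, and BMPs have been described as agents that push glioma-initiating cells to differentiate.

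Each level below is a processed signal divided by the 75th percentile of its array, on the log2 scale, so 0 is the 75th percentile. Behind each ± stands the spot error that the scanner software modelled, which covers no biological variation. With 1 array per group no difference has a replicate check, a test or a p-value, and precision is limited by the number of arrays. A gene was evaluated in a comparison when at least 1 of the 2 arrays carried the scanner software's flag for well above background, and a difference counted from 2-fold upwards (1.0 on the log2 scale). For a gene seen on 1 array only, "at least" sets the bright array against the higher of the dim value and the lowest signal well above background on the dim array. Counts use the differences as measured, also where that bound lies under 2-fold. The 4 arrays lay at positions 1 to 4 of 1 slide, so the group cannot be told apart from the position. Between 62.7% and 67.2% of named genes were well above background on each array. No probe analysed here was named for Ceacam1, so the manipulation itself was not checked, and groups are called as the arrays were labelled.

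As measured, the largest difference among the BMP genes lay in a ligand in each of the 3 comparisons. With normexp background correction, the log2 difference of Id4 (2.68) passed that of Bmp4 (2.13) for NSC-Ceacam1L minus NSC. For the hairpin array minus NSCL61, Bmp7 (-1.49) then fell behind Smad7 (2.64), while Bmp4 (3.19) was largest. Bmp2 and Bmp4 were higher on both manipulated arrays than on their parental arrays, whereas Bmp7 was lower on both and was lower again on NSCL61 than on NSC. The Id genes went different ways: Id4 was higher on NSC-Ceacam1L, Id1 was higher and Id2 lower on NSCL61-Ceacam1sh, and Id3 stayed within 2-fold in the 3 comparisons. Nog did so too.

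On NSC-Ceacam1L, 4 of the 10 genes were higher than on NSC (Bmp2, Bmp4, Id4 and Smad6), against 10.5% of all 15311 genes evaluated, and 1 (Bmp7) was lower, against 6.05% (16.5% in either direction). On NSCL61-Ceacam1sh, 4 were higher than on NSCL61 (Bmp2, Bmp4, Id1 and Smad7) and 2 lower (Bmp7 and Id2), in a comparison in which 23.4% of 15605 genes were higher and 24.2% lower (47.7% in either direction), so that a call was common there. On NSCL61, 2 of the 9 genes evaluated were higher than on NSC (Id4 and Smad6) and 1 lower (Bmp7), with 14.4% of 15296 genes higher and 14.0% lower (28.4% in either direction). Bmp2 was not well above background on either array of that last pair. The median difference over the members was 0.61 for NSC-Ceacam1L against NSC, where it was -0.10 over all genes evaluated. It was -0.20 for the hairpin array against NSCL61 (0.01 over all genes) and 0.20 for NSCL61 against NSC (0.03 over all genes). The hairpin median was 0.22 when arrays were scaled by their medians and 0.25 when scaled by spike-ins, which also turned the last one to -0.023.

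**Figure D1:**
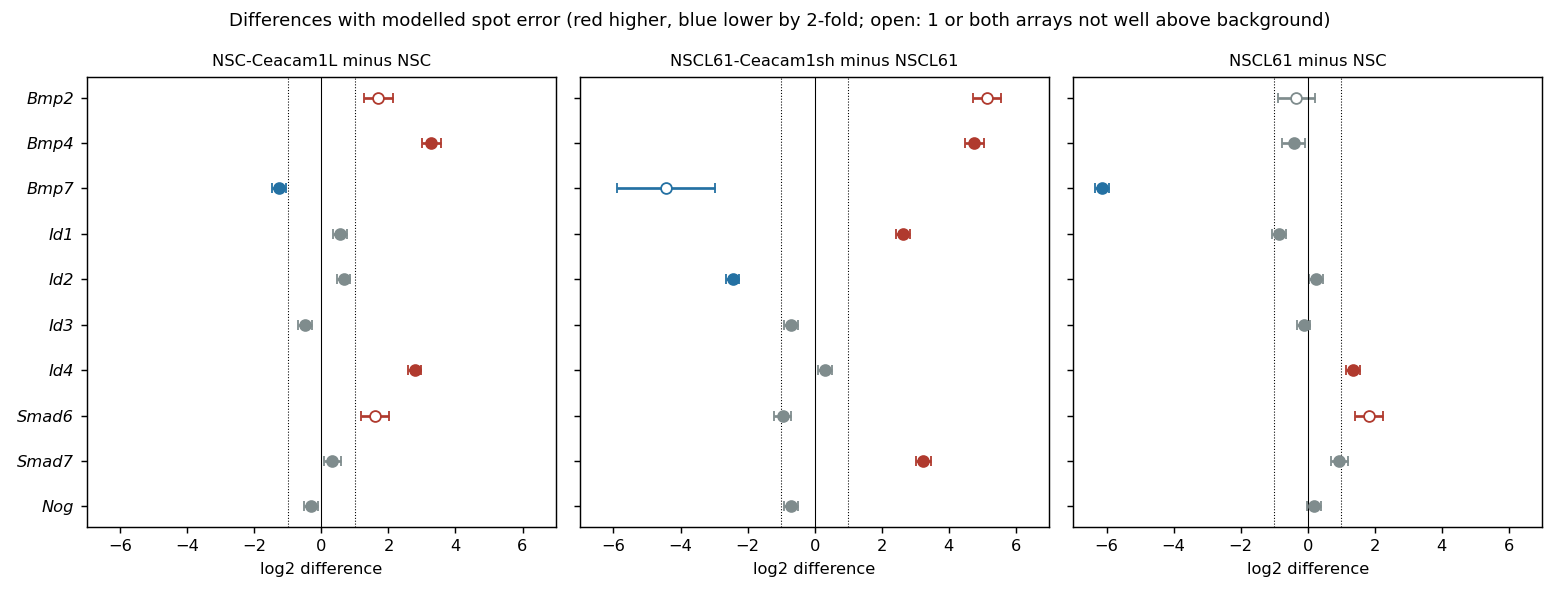
Log2 difference (x axis) of each of the 10 genes (y axis) in the 3 comparisons, with the modelled spot error as bars, red for higher and blue for lower by 2-fold or more, and open points where 1 or both arrays were not well above background. Bmp2 and Bmp4 lie to the right in the first 2 panels, and Bmp7 lies to the left in all 3, reaching -6.14 for NSCL61 minus NSC.

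Bmp2 and Bmp4 encode closely related ligands. Bmp4 (probe A_55_P2154387, chr14:47003391-47003450, minus strand, mm9) had levels of 1.11 on NSCL61-Ceacam1sh, -3.65 on NSCL61, 0.05 on NSC-Ceacam1L and -3.23 on NSC. Before scaling these were processed signals of 1172, 35.1, 591 and 51.1, all well above background. The 2 manipulated arrays were thus high and the 2 parental arrays low, and the parental arrays differed from each other by -0.41 ± 0.34 (NSCL61 minus NSC). The difference was 4.76 ± 0.28 (27.1-fold) for the hairpin array over NSCL61 and 3.28 ± 0.28 (9.73-fold) for NSC-Ceacam1L over NSC, and with normexp background correction it was 3.19 and 2.13. Another Bmp4 probe, A_55_P1959022, was not well above background on any array.

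Bmp2 (A_55_P2041961, chr2:133388260-133388319, plus strand, mm9) was likewise higher on both manipulated arrays. Its level was 0.55 on NSCL61-Ceacam1sh and -4.58 on NSCL61, and -2.54 on NSC-Ceacam1L against -4.24 on NSC, and neither parental array was well above background, so these 2 have no order. The dim Bmp2 signals (18.3 on NSCL61 and 25.4 on NSC) lay above the lowest signals well above background there (17.5 and 24.9). The Bmp2 folds are therefore as measured and set no lower bound. The hairpin array was 35.1-fold higher than NSCL61, and this log2 difference of 5.13 ± 0.42 was 3.14 with normexp correction. NSC-Ceacam1L was 3.25-fold higher than NSC, a difference of 1.70 ± 0.42 that was 0.57 with normexp correction and then no longer counted. Bmp7, a ligand of another branch of the family, ran in the other direction (A_52_P278354, chr2:172695203-172695262, minus strand, mm9). Its levels were -6.88 on NSCL61-Ceacam1sh, -2.45 on NSCL61, 2.43 on NSC-Ceacam1L and 3.69 on NSC, and only the hairpin array was not well above background. Each step in that order was larger than 2 modelled errors. NSCL61 was 70.5-fold lower than NSC (-6.14 ± 0.21), a size reached by 0.693% of genes evaluated in that comparison, and the hairpin array was at least 4.34-fold lower than NSCL61. With normexp correction these log2 differences were -5.39 and -1.49, and the second, -4.43 ± 1.46 as reported, is then smaller than its bound. NSC-Ceacam1L was 2.40-fold lower than NSC (-1.26 ± 0.20), which came to -0.85 under spike-in scaling.

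**Figure D2:**
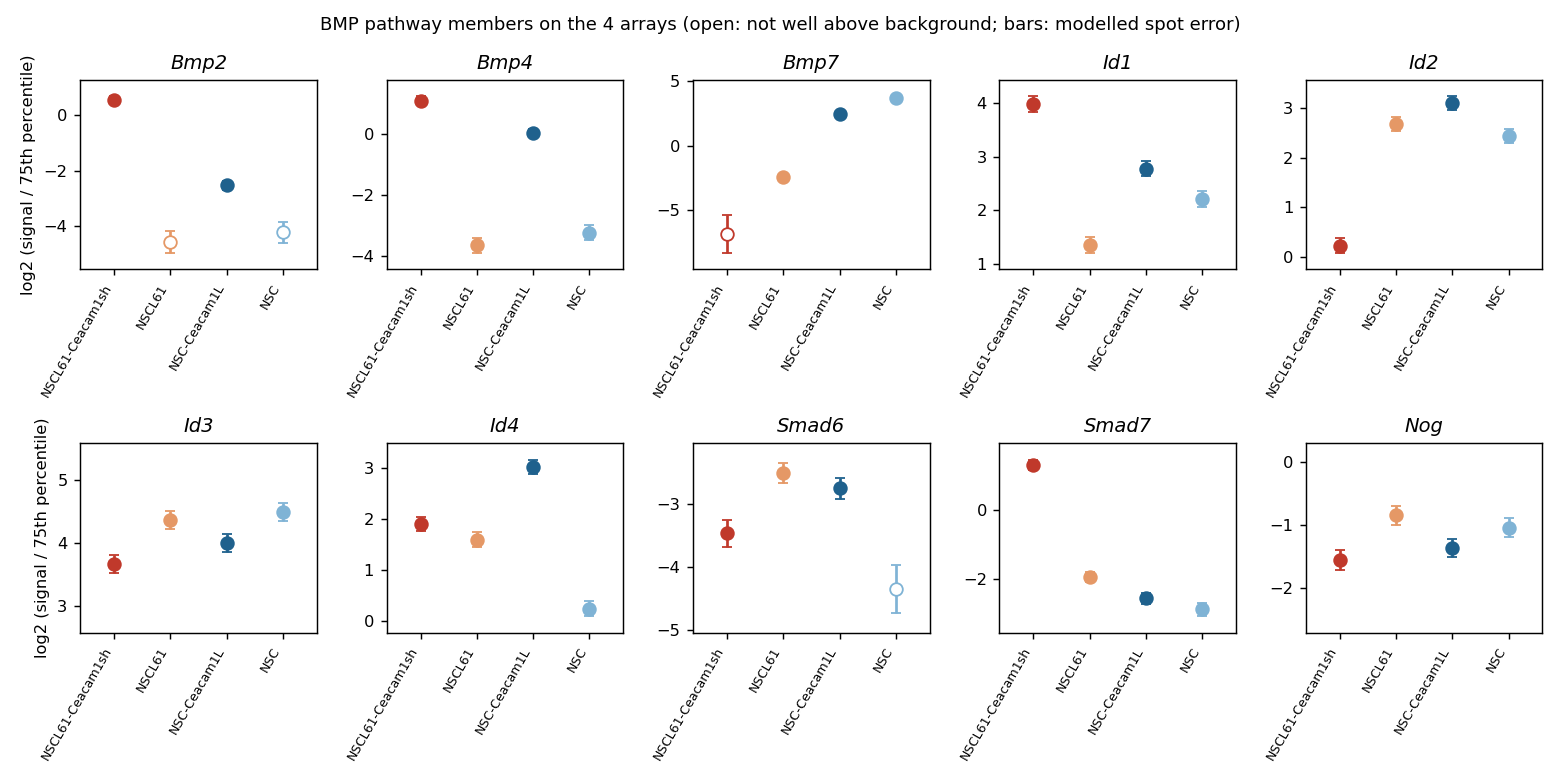
Log2 level (y axis, signal over the 75th percentile of the array) of each gene on the arrays NSCL61-Ceacam1sh, NSCL61, NSC-Ceacam1L and NSC (x axis), with the modelled error as bars and open points where the signal was not well above background; each panel has its own scale. Bmp2 and Bmp4 are higher on both manipulated arrays than on their parental arrays, though Bmp2 stays at -2.54 on NSC-Ceacam1L. Bmp7 is lowest on the hairpin array (-6.88) and highest on NSC (3.69), and Id3 and Nog span less than 1.0.

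NSC-Ceacam1L and NSCL61-Ceacam1sh were set against different parental arrays, so these 2 comparisons share no array, whereas NSCL61 minus NSC shares an array with each of them. Bmp2 and Bmp4 were among 331 genes higher in both, which made up 27.8% of the genes higher with Ceacam1L and 11.0% of those higher with the hairpin, over 14346 genes evaluated in both. Bmp7 was among 138 genes lower in both (19.7% of those lower with Ceacam1L and 4.09% of those lower with the hairpin). For the whole array, more genes were called in opposite directions: 572 (3.99%) were higher on NSC-Ceacam1L but lower on the hairpin array, and 362 (2.52%) the reverse. Genes higher in both made up 2.31% of those evaluated, and genes lower in both 0.962%. None of the 10 members was called in opposite directions, which with so few members is near these small shares.

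The sequence around the start site is shown for the members that hold a known Smad motif there, since the Id genes and Smad6 are textbook targets of BMP Smads. RefSeq windows of 300 bases on GRCm38.p6, running 5′ to 3′ from 250 bases before the start site to 50 after, were used here for 5 of the 10 members: Bmp4, Id2, Id3, Id4 and Smad6. They were searched for the GC-rich element GGCGCC, known for binding BMP Smads, and for the palindrome GTCTAGAC, known as an optimal Smad site. Each of these motifs is its own reverse complement, so 1 search covers both strands, and they do not overlap each other. GGCGCC was found in 11.9% of 32544 distinct windows of this length and GTCTAGAC in 0.215%. Id2 and Id4 held GGCGCC once each, with its first base 231 and 148 bases before the start site. In Smad6, GTCTAGAC began 4 bases before the start site and ran across it, and the windows of Bmp4 and Id3 held neither. The motif is in capitals below, for Id2 on the minus strand of chr12:25096043-25096342, Id4 on the plus strand of chr13:48260866-48261165 and Smad6 on the minus strand of chr9:64022010-64022309.
Id2: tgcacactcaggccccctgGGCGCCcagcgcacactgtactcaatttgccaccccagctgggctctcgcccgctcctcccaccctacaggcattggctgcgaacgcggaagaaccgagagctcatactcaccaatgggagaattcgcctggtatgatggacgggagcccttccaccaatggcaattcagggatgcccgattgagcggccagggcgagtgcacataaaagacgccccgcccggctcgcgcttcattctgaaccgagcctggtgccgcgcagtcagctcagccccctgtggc
Id4: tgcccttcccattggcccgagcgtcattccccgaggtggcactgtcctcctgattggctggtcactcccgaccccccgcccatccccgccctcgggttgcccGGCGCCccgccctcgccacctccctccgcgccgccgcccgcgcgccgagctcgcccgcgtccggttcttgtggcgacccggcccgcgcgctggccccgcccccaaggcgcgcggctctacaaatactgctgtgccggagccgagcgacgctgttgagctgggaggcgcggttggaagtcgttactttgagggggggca
Smad6: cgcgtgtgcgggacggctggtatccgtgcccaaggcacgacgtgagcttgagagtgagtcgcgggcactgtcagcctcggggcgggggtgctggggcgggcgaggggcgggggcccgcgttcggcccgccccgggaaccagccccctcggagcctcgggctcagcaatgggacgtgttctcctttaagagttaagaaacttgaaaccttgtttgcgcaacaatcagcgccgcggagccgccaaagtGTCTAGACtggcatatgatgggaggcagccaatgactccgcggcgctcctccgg
A match in these windows is a description of the letters and no measured binding.

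Id1, which keeps progenitors dividing and undifferentiated, was measured by A_55_P2052563 (chr2:152563083-152563142, plus strand, mm9). Its level was 3.99 on NSCL61-Ceacam1sh and 1.35 on NSCL61, and 2.78 on NSC-Ceacam1L against 2.22 on NSC. Ranked by level, each array was separated from the next by more than 2 modelled errors. The hairpin array was 6.21-fold higher than NSCL61 (2.64 ± 0.20), with 17.9% of all genes showing a difference of that size or more in this comparison. NSC-Ceacam1L differed from NSC by 0.56 ± 0.20 and NSCL61 from NSC by -0.86 ± 0.20, short of 2-fold, though this one reached -1.08 under spike-in scaling.

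Id2, which holds back bHLH factors of oligodendrocyte and neuronal differentiation, had levels of 0.23 on NSCL61-Ceacam1sh, 2.68 on NSCL61, 3.1 on NSC-Ceacam1L and 2.44 on NSC (A_52_P240542, chr12:25778904-25778963, minus strand, mm9). One array stood apart, the hairpin array, which was 5.45-fold lower than NSCL61 (-2.45 ± 0.20). NSC-Ceacam1L differed from NSC by 0.66 ± 0.20, or 1.07 under spike-in scaling. Id1 and Id2 thus differed in opposite directions on the same pair of NSCL61 arrays, under all the scalings tried. Id4, which is known as an inhibitor of oligodendrocyte and neuronal fates and a marker of astrocytes and slowly dividing stem cells, had levels of 1.90 on NSCL61-Ceacam1sh, 1.59 on NSCL61, 3.01 on NSC-Ceacam1L and 0.24 on NSC (A_52_P449871, chr13:48358668-48358727, plus strand, mm9). NSC was the low array and NSC-Ceacam1L the high one, 6.86-fold apart (2.78 ± 0.20). NSCL61 was 2.56-fold higher than NSC (1.35 ± 0.20), and the NSCL61 arrays differed by 0.31 ± 0.20, less than 2 modelled errors.

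Id3, a partner of Id1 in neural progenitors, had levels of 3.67 on NSCL61-Ceacam1sh, 4.37 on NSCL61, 4.0 on NSC-Ceacam1L and 4.49 on NSC. Ranked by level, neighbouring arrays did not differ by more than 2 modelled errors. The differences were -0.70 ± 0.20 with the hairpin, -0.49 ± 0.20 with Ceacam1L and -0.13 ± 0.20 for NSCL61 minus NSC. Nog had levels of -1.55 on NSCL61-Ceacam1sh, -0.85 on NSCL61, -1.36 on NSC-Ceacam1L and -1.04 on NSC, with differences of -0.71 ± 0.21, -0.32 ± 0.21 and 0.20 ± 0.21 in the same comparisons. The last 2 of these changed sign under spike-in scaling, to 0.093 and -0.023. The hairpin and NSCL61 arrays were more than 2 modelled errors apart for both genes, and NSC-Ceacam1L and NSC were so for Id3. Under spike-in scaling these differences shrank to -0.25 (Id3) and -0.26 (Nog) with the hairpin and to -0.079 (Id3) with Ceacam1L. These 2 genes had the smallest ranges among the members, and the probes that gave these readings are printed here. The Id3 probe is 60 bases long but spans 175 bases of the genome (chr4:135700075-135700249, plus strand, mm9), as a probe across a splice junction does, and the Nog probe (chr11:89162849-89162908, minus strand, mm9) had no stop codon in any of its 3 forward frames. Both are given 5′ to 3′ as listed on the array, and no letters are marked.
Id3 probe A_51_P380178: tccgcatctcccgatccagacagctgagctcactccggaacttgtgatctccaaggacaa
Nog probe A_51_P237040: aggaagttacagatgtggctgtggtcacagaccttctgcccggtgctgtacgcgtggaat

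The inhibitory Smads differed from each other. Smad7, which blocks receptors of both BMPs and TGF-beta, had levels of 1.32 on NSCL61-Ceacam1sh, -1.93 on NSCL61, -2.54 on NSC-Ceacam1L and -2.86 on NSC (A_51_P403636, chr18:75555371-75555430, plus strand, mm9). The hairpin array stood above the other 3 and was 9.50-fold higher than NSCL61 (3.25 ± 0.21). Smad7 differed by 0.32 ± 0.25 between NSC-Ceacam1L and NSC and by 0.94 ± 0.25 between NSCL61 and NSC. Smad6, which acts mainly on the BMP branch, had levels of -3.47 on NSCL61-Ceacam1sh, -2.52 on NSCL61, -2.76 on NSC-Ceacam1L and -4.35 on NSC, where it was not well above background (A_55_P2129658, chr9:63800980-63801039, minus strand, mm9). It was at least 2.85-fold higher on NSC-Ceacam1L and at least 3.36-fold higher on NSCL61 than on NSC. These 2 differences were 1.59 ± 0.41 and 1.83 ± 0.41 as measured, and 0.49 and 0.72 with normexp correction, which left neither counted. On the hairpin array Smad6 differed from NSCL61 by -0.95 ± 0.26, or by -0.51 under spike-in scaling.

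**Figure D3:**
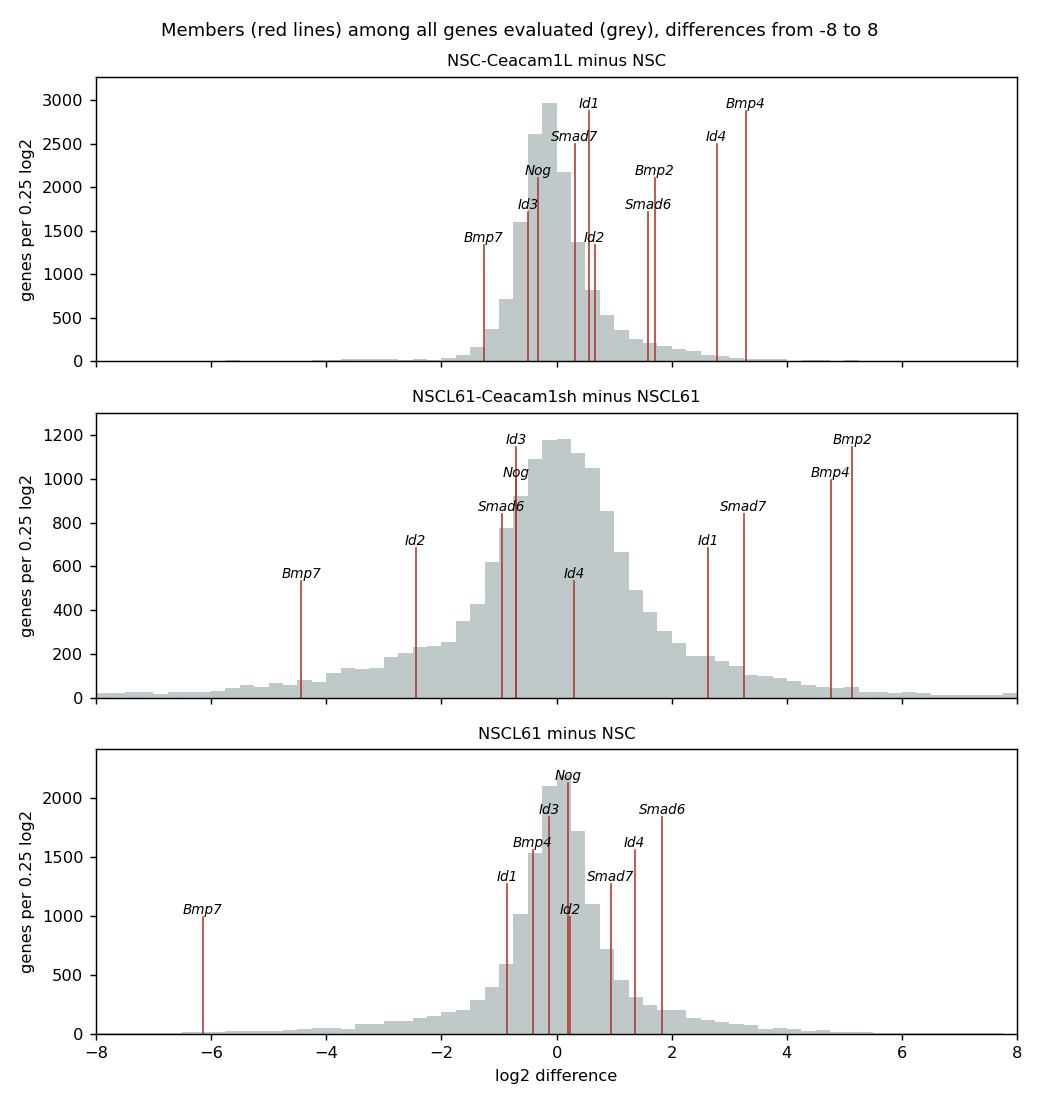
Number of genes evaluated (y axis) by log2 difference in bins of 0.25 (x axis) for the 3 comparisons, with a red line for each of the members evaluated. Bmp4 and Id4 lie in the right tail for NSC-Ceacam1L minus NSC, and Bmp7 lies in the left tail for NSCL61 minus NSC, while the distribution for NSCL61-Ceacam1sh minus NSCL61 is wide enough to hold Id1, Id2 and Smad7 in its flanks.

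The members spanned a median of 2.82 on the log2 scale between their highest and lowest array, with dim signals taken as measured, against 1.43 over 16570 genes well above background on at least 1 array. By comparison, the median size of a difference was 0.96 over the members and 0.39 over all genes for NSC-Ceacam1L minus NSC, 2.54 and 0.94 for NSCL61-Ceacam1sh minus NSCL61, and 0.86 and 0.51 for NSCL61 minus NSC. The members were chosen with earlier results of these arrays known, so nothing particular to them follows from these medians.

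The rest of the pathway was described from lists of receptors, Smads, antagonists and modulators, further ligands and further targets. Values not given as a fold are log2 differences. Of 11 genes of BMP receptors and co-receptors, 10 were evaluated between the hairpin array and NSCL61, of which 5 were lower and 1 higher, where 24.2% of all genes were lower and 47.7% were called either way. The receptor kinase gene Bmpr1b was lower by the largest amount (-3.65 ± 0.21), followed by the co-receptor gene Rgma (-2.88), the receptor genes Acvr2b (-1.61) and Bmpr1a (-1.54), and Acvr2a (-1.05), while the receptor gene Acvr1 was higher (1.26). Bmpr2 differed by -0.65, Acvrl1 by 0.09, Rgmb by -0.19 and Eng by 0.88. Between NSC-Ceacam1L and NSC, none of the 9 receptor genes evaluated reached 2-fold, and their differences lay between -0.04 (Acvr2b) and 0.52 (Rgma). On NSCL61, Rgma was higher than on NSC (2.0) and Eng at least 1.79-fold higher, and the other 8 evaluated were within 2-fold. Over all genes, 16.5% were called either way with Ceacam1L and 28.4% on NSCL61.

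Of the Smads that carry the BMP signal, Smad5 was lower on the hairpin array (-1.04), Smad1 differed by -0.72 there and the shared partner Smad4 by 0.71. Smad1 was higher on NSCL61 than on NSC (1.75 ± 0.21), and Smad5 differed by -0.74 and Smad4 by -0.18. Smad9 was well above background on NSC-Ceacam1L only, at -2.80 against -5.56 on NSC, so that it was at least 2.77-fold higher, while Smad1 (0.47), Smad5 (-0.80) and Smad4 (-0.12) were within 2-fold. Of 11 Smads and Smad regulators, 1 was called higher and 0 lower with Ceacam1L, 0 higher and 1 lower with the hairpin, and 1 higher and 0 lower on NSCL61, with 11, 10 and 10 evaluated. Over all genes, 16.5%, 47.7% and 28.4% were called either way.

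**Figure D4:**
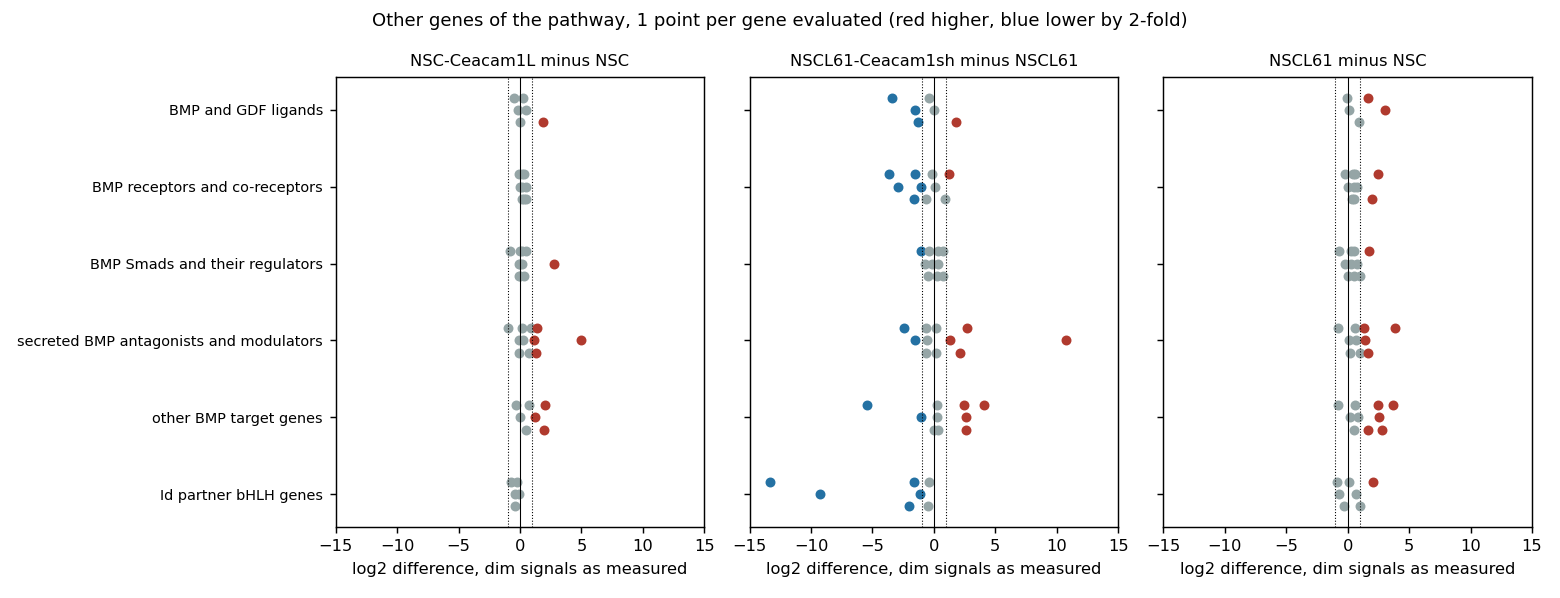
Log2 difference (x axis, dim signals as measured) of each further gene evaluated in 6 lists (y axis) for the 3 comparisons, red for higher and blue for lower by 2-fold or more. The hairpin comparison spreads widest, with Grem1 far to the right and Olig1 far to the left, and the receptors cluster near 0 for NSC-Ceacam1L minus NSC.

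Several other BMP antagonists and modulators passed 2-fold. Grem1, the gene of the BMP antagonist gremlin, was well above background on the hairpin array only (4.46, against -6.25 on NSCL61), which made it at least 551.8-fold higher. Bmper, which binds BMPs outside the cell, was higher there (2.71) and on NSC-Ceacam1L (1.38), and follistatin Fst (2.10) and Fstl1 (1.29) were higher on the hairpin array. Chrdl1, a chordin-like antagonist, was lower on that array (-2.45), as was Nbl1 (-1.53), which was higher on NSC-Ceacam1L (1.32) and NSCL61 (1.61) than on NSC. With Ceacam1L, Chrdl2 was at least 8.08-fold higher and Dand5 was higher by 1.11. On NSCL61, Crim1, which tethers BMPs at the cell surface, was higher than on NSC (3.83), as were Twsg1 (1.42) and Dand5 (1.31). Of 16 such genes, 4 were higher and 0 lower with Ceacam1L, 4 higher and 2 lower with the hairpin, and 4 higher and 0 lower on NSCL61, with 11, 11 and 10 evaluated. Over all genes, 16.5%, 47.7% and 28.4% were called either way in these comparisons.

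Few of the remaining ligands were seen. Of 14 BMP and GDF genes, 6 were evaluated in each Ceacam1 comparison and 5 for NSCL61 against NSC. With Ceacam1L 1 was higher and 0 lower, with the hairpin 1 higher and 3 lower, and on NSCL61 2 higher and 0 lower. Over all genes, 16.5%, 47.7% and 28.4% were called either way, so a call was common with the hairpin. Bmp3 was at least 2.24-fold higher on NSC-Ceacam1L than on NSC and at least 1.76-fold higher on NSCL61-Ceacam1sh than on NSCL61. Bmp6 was seen on NSCL61 alone, so that it was at least 2.80-fold lower on the hairpin array than on NSCL61 and at least 2.27-fold higher on NSCL61 than on NSC. Gdf11 differed by -1.5 and 1.66 in the same pairs. Gdf7 was at least 1.65-fold lower on the hairpin array.

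Further genes known to respond to BMPs in some tissues also split. With Ceacam1L, Junb (1.96), Atoh8 (at least 1.89-fold) and Gata3 (at least 1.11-fold) were higher and none of the 7 evaluated was lower, beside 10.5% and 6.05% of all genes. With the hairpin, Tbx3 (4.07), Gata2 (2.61), Gata3 (2.59) and the bone factor Runx2 (2.42) were higher, while Hey1 (-5.42), which is also a Notch target, and Atoh8 (-1.03) were lower, of 10 evaluated, beside 47.7% of all genes called. On NSCL61, 5 of 10 were higher than on NSC and 0 lower, beside 14.4% and 14.0% of all genes. These 5 were Gata2 (at least 2.88-fold), Gata3 (at least 1.90-fold), Atoh8 (at least 4.82-fold), Runx2 (at least 4.44-fold) and Junb (1.63).

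Of the bHLH factor genes whose products Id proteins bind or hold in check, 5 of 7 evaluated were lower on the hairpin array and 0 were higher, beside 24.2% and 23.4% of all genes. The oligodendrocyte factors Olig1 and Olig2 were lower than on NSCL61 by at least 2326-fold for Olig1 and at least 371-fold for Olig2. The neurogenic factors Neurog1 and Neurod1 were lower by at least 1.48-fold for Neurog1 and at least 1.38-fold for Neurod1, and the E protein gene Tcf12 was lower as well (-1.58). Between NSC-Ceacam1L and NSC none of the 5 evaluated passed 2-fold, beside 16.5% of all genes. On NSCL61, Neurod1 alone of 7 was higher than on NSC (at least 1.12-fold), beside 14.4% of all genes.

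For each of the 7 members well above background on all 4 arrays, the 12477 genes seen on all of them were ranked by the root mean square difference of log2 levels, each gene centred on its own mean. Nearest to Bmp4 were Fbln5 (0.41), Fah (0.46) and Mmp11 (0.52). To Id1 they were Cth (0.04), H3c8 (0.12) and Prxl2a (0.13), and to Id2 they were Abhd4 (0.04), Pid1 (0.04) and Mettl27 (0.05). Id4 lay nearest to Igtp (0.14), Zfp36 (0.20) and Lrrc75b (0.23), and Smad7 to B4galt1 (0.09), Col5a1 (0.10) and Acot7 (0.11). Nearest to Id3 were Dipk2a, Gm8479 and Copz1 (0.03 to 0.04), and to Nog they were Mcrs1, 2610037D02Rik and Cutc (all 0.03). Bmp4 and Id1 were 1.22 apart by this measure, and Id3 and Nog 0.13. With 4 arrays, such likeness describes these arrays only.

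Marker lists of cell types moved with these differences, and their part in them was not tested. In bulk RNA, fewer cells of a type and less RNA per cell cannot be told apart. All 8 neural stem cell markers were well above background on the hairpin array, 7 on NSCL61 (all but Prom1), 8 on NSC-Ceacam1L and 8 on NSC, with summed levels of 8.31, 9.75, 9.15 and 9.44. Vim (8.13) was the highest of them on the hairpin array and made up most of that sum. Against NSCL61, 4 of the 8 were lower on the hairpin array (Fabp7 by -12.4, Sox1 by -6.11, Sox2 by -1.76 and Nes by -1.18) and 1 (Prom1) was higher, with a median of -0.91. Of 7 astrocyte markers, 4 were well above background on the hairpin array and 7 on each other array, with summed levels of 1.37, 8.29, 7.32 and 6.63 in the same order, and Gfap, S100b and Slc1a2 were the ones not seen on the hairpin array. With the hairpin, 7 of 7 were lower (median difference -6.65), with Ceacam1L 5 of 7 were higher and 0 lower (median 2.12), and on NSCL61 5 were higher and 1 lower than on NSC (median 2.24). Over all genes, 24.2% were lower and 23.4% higher with the hairpin, 10.5% higher and 6.05% lower with Ceacam1L, and 14.4% higher and 14.0% lower on NSCL61. Fibroblast or mesenchymal markers had summed levels of 4.44 on the hairpin array, -1.36 on NSCL61, 3.76 on NSC-Ceacam1L and 1.22 on NSC, with 5, 4, 4 and 3 of 7 well above background. Thy1 was the highest of these markers on NSC-Ceacam1L (3.71) and NSC (1.0), and was not seen on the hairpin array. Of those evaluated, 5 of 6 were higher and 1 (Thy1) lower on the hairpin array than on NSCL61, 2 of 4 were higher and 0 lower on NSC-Ceacam1L than on NSC, and Lum was not seen on any array. Oligodendrocyte lineage markers had summed levels of 1.49, 6.94, 7.58 and 7.63 and neuron markers 3.23, 5.96, 4.88 and 4.69, with 5, 7, 8 and 8 of 8 and 3, 5, 6 and 5 of 6 well above background. Of 6 microglia or macrophage markers, 3, 4, 3 and 3 were well above background on these arrays in the same order, with summed levels of 3.68, 4.83, 4.75 and 4.43. Csf1r, Itgam and Cd68 were seen on all 4 arrays, and Ptprc and Aif1 on none. Of 6 endothelial markers, 2, 4, 3 and 3 were well above background, with summed levels of 3.11, 3.85, 3.17 and 3.44. Kdr and Pecam1 were seen on all 4 arrays, Vwf on all but the hairpin array, and Tek and Cldn5 on none. Lower calls with the hairpin were thus not limited to astrocyte markers. Of the markers evaluated, 5 of 8 oligodendrocyte lineage (1 higher), 5 of 5 neuron, 3 of 4 microglia or macrophage and 2 of 4 endothelial markers were lower there.

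**Figure D5:**
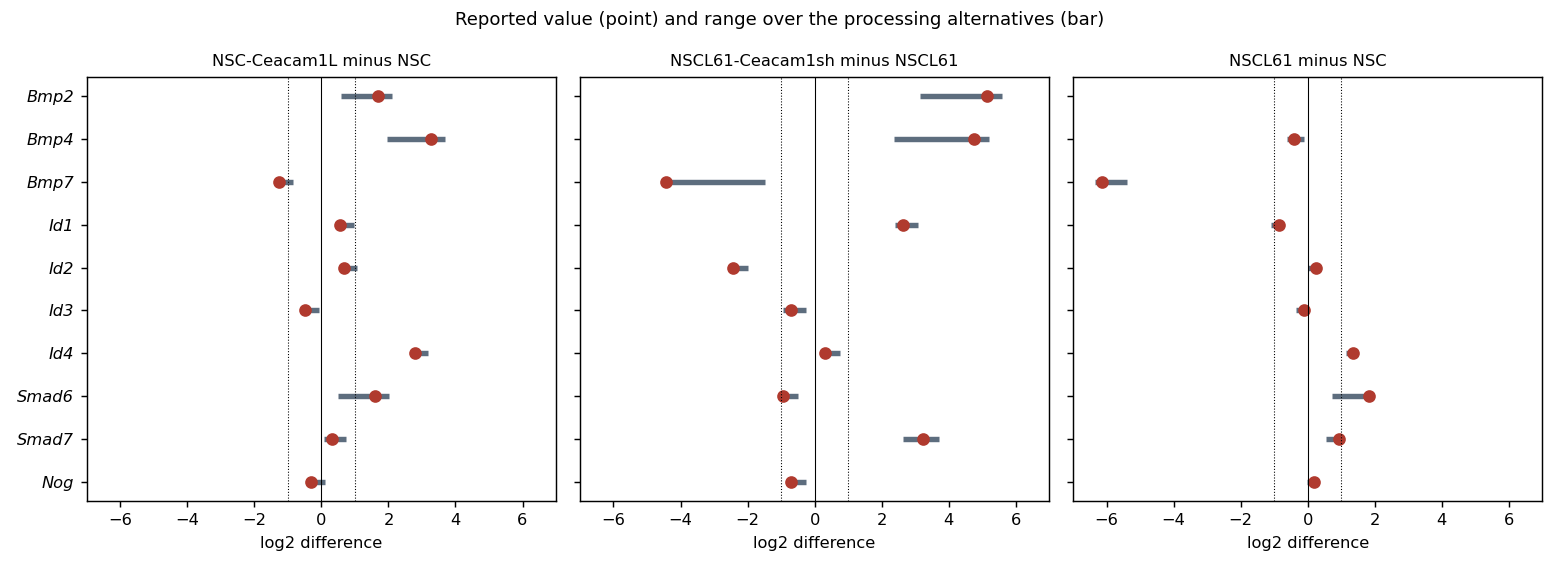
Reported log2 difference (point) and its range over the processing alternatives (bar) on the x axis, for each member (y axis) in the 3 comparisons. Bars are longest for Bmp2, Bmp4, Bmp7 and Smad6, and no called difference crosses 0. Bmp7 was not well above background on the hairpin array only, Smad6 on NSC only and Bmp2 on NSC and NSCL61.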

How the data were processed

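Total RNA of 4 cultures was measured on 1 single-colour array each, labelled with Cy3 from 0.5 µg of RNA, per the labels' protocols. The authors' deposited scanner files hold intensity values (the processed signal, after background subtraction and detrending, and its modelled error) made with Agilent Feature Extraction 10.7.3.1, protocol GE1_107_Sep09, on mm9, per the file headers, and the version is 9.1 in the submitters' processing notes. The flags for well above background, saturation and outlier spots in those deposited files are other columns of 0 or 1. Names came from the NSCL61 file, since 58 gene names in the NSC file differed and its signals had been rounded. The authors' deposited value table holds log2 values, as its differences followed those of the scanner signals with slopes of 0.9998 to 0.9999 and offsets of -0.22 (NSC-Ceacam1L minus NSC), -0.27 (hairpin comparison) and 0.14 (NSCL61 minus NSC). Its centring stays unknown (medians of 0.03, 0.00, -0.20 and 0.25 for NSCL61-Ceacam1sh, NSCL61, NSC-Ceacam1L and NSC), and it was used as an alternative only.

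Signals were divided by the 75th percentile of 59305 non-control spots (541, 439, 571 and 480.0 in that order of arrays) and taken to log2. Outlier spots (143 to 187 an array) were left out, 0 were saturated, and repeat spots were averaged per probe. A probe needed at least 50.0% of its spots well above background. Probes were named through accessions (27235), symbols (3581) or older symbols (565) in the RefSeq table of GRCm38.p6, and 24300 stayed without a name. Where a gene had several probes, the brightest on average was used. The members, all their probes, and from 6 further lists the genes past 2-fold (up to 6 a list) and the receptors and Smads were named, with the 3 nearest genes of each member. Members and lists were chosen with earlier results of these data known, and 1 gene of a list is not reported here. Alternatives were normexp with offset 50 (limma 3.58.1), median, quantile, cyclic loess and spike-in scaling (8 spike-in probes), the deposited table, other filters, the mean over probes and 1.5-fold. The counting was tested on simulated data.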

Additional observations from a re-analysis of the deposited data

How the results depend on the processing

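Of 256 values of single members under an alternative, 201 moved by less than their modelled error, 55 moved by more, and 0 called values changed sign. The 201 include values that could not move. The other filters reuse the same differences, and the mean over probes can change Bmp4 only, so these numbers do not measure stability. With normexp background correction, 2 members in place of 4 were counted higher for NSC-Ceacam1L minus NSC and 1 in place of 2 for NSCL61 minus NSC, since Bmp2 and Smad6 fell short of 2-fold. When both arrays had to be well above background, these counts were again 2 and 1, and 1 in place of 2 members was lower for NSCL61-Ceacam1sh minus NSCL61, as the 8 members left exclude dim ones. From 1.5-fold, 5 members were lower with the hairpin, beside 5160 of all 15605 genes evaluated. On NSCL61, 2 members were then lower, beside 3348 of 15296. Spike-in scaling left 0 lower with Ceacam1L and made 2 lower on NSCL61. The median over members for NSC-Ceacam1L minus NSC, 0.61, was 0.85 after cyclic loess and 1.02 with spike-ins. That for NSCL61-Ceacam1sh minus NSCL61, -0.20, was 0.22 with median scaling and 0.25 with spike-ins, and that for NSCL61 minus NSC, 0.20, was -0.023 under spike-in scaling. These scalings shift all genes: the median over all genes moved by 0.22 (cyclic loess), 0.13 (quantile) and 0.41 (spike-in) for NSC-Ceacam1L minus NSC, by 0.42 (median) and 0.45 (spike-in) for the hairpin comparison, and by -0.22 (spike-in) for NSCL61 minus NSC. The share of all calls that were higher, 63.4% with Ceacam1L, was 76.4% after cyclic loess and 85.5% with spike-ins, that with the hairpin, 49.2%, was 64.5% with median scaling and 65.4% with spike-ins, and that on NSCL61, 50.7%, was 40.3% under spike-in scaling. From 1.5-fold the share with Ceacam1L was 50.5%. With normexp, 746 genes in place of 1603 were higher and 529 in place of 926 lower with Ceacam1L. It also gave 1377 higher in place of 2198 and 1402 lower in place of 2140 on NSCL61. With both arrays well above background, 889 were higher with Ceacam1L, 2357 in place of 3783 lower with the hairpin and 1396 higher on NSCL61. With Ceacam1L, spike-ins gave 2610 higher and 442 lower, and cyclic loess 617 lower. From 1.5-fold, 2623 and 2573 were higher and lower with Ceacam1L, and 3572 and 3348 on NSCL61. Averaging the 2 Bmp4 probes gave 1.95 with Ceacam1L and 2.38 with the hairpin, since 1 of them was at background. Signals near background limit the differences of Bmp2 and Smad6, and that of Bmp7 between the hairpin array and NSCL61. Bmp4 had low signals on NSCL61 (35.1) and NSC (51.1), and its differences on both manipulated arrays also shrank with normexp. Having 1 array per group limits all differences. No paired analysis was possible because each group has 1 array and no replicate numbers.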
